A study of Mus musculus with 8 samples.

Results

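The 10 genes described here, Lpl, Gpihbp1, Cd36, Fabp4, Fabp5, Angptl4, Adipoq, Plin1, Plin4 and Pparg, handle circulating lipid at the capillary wall or store it in fat cells. They were taken by name from the 54837 gene identifiers of a count table, and 8 of the 10 had enough reads for a test. The list was chosen by earlier results of the same G1 against G0 contrast, in which Lpl and several endothelial genes were lower in G1. Their differences between G1 and G0 are therefore a description. No p-value is given for them, and counts of members past a threshold support nothing. RNA had been sequenced from basal cells of the mammary gland of mice labelled strain C57BL/B6, sorted into G1, the growth phase before DNA synthesis (4 libraries), and G0, the resting state outside the cycle (4 libraries). Each of 4 runs gave 1 G1 and 1 G0 library, no treatment was given to either group, and the labels name no transgene or mutation. The age of the mice, the markers used in the sort and whether a run was 1 animal or a pool are unknown from the labels.

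Lipoprotein lipase, encoded by Lpl, cuts the triglyceride of circulating lipoproteins into fatty acids. It is made by parenchymal cells such as adipocytes and muscle cells, and GPIHBP1, a protein of capillary endothelium, carries it across the cell to the vessel lumen. CD36 on endothelial cells, adipocytes and macrophages binds the fatty acids, and the cytosolic chaperones FABP4 and FABP5 carry them inside the cell. ANGPTL4 inhibits the lipase. In adipocytes, PPARgamma (Pparg) drives storage genes, the perilipins PLIN1 and PLIN4 coat lipid droplets, and adiponectin (Adipoq) is secreted. In the mammary gland basal cells lie around the ducts, next to a fat pad rich in capillaries, so several of these genes are markers of neighbours as well as of lipid handling.

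Promoter sequence was matched for 5 of the 10 members, Cd36, Pparg, Plin1, Adipoq and Plin4, with 7 start sites in all. The 3 printed below are of Cd36 and Pparg, lower in G1 in all 4 runs, and of Plin4, which was not, so the choice followed these values. Each is the 250 bases upstream of a RefSeq start on GRCm38.p6, 5′ to 3′ on the gene's strand, at chr5:17835897-17836146 (minus strand), chr6:115360894-115361143 (plus strand, the first of 3 Pparg starts) and chr17:56109783-56110032 (minus strand). By GENCODE M21 positions the Cd36 start lies inside the gene (17781690 to 17888801), and the first Pparg window holds the gene's start (115360951). No effect of promoter sequence was tested. Capitals mark every match, on either strand, to AGGTCA (the hexamer that nuclear receptors such as PPARgamma bind), to the CCAAT box, to the GC box GGGCGG or to the TATA box TATAAA.
Cd36: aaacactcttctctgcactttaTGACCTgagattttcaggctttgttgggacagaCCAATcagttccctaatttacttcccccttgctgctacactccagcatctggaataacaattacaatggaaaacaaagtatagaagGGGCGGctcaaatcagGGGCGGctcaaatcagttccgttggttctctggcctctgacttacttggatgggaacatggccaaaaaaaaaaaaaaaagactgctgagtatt
Pparg: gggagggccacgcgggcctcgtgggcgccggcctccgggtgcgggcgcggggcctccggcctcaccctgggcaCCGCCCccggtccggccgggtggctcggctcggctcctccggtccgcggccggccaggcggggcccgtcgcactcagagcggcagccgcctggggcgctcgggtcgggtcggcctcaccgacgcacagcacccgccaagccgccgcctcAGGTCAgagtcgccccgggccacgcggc
Plin4: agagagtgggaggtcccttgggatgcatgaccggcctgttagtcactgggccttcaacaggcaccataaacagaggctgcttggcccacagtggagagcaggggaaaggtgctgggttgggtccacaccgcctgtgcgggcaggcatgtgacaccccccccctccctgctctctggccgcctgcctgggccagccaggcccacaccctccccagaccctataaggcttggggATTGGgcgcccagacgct

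The AGGTCA hexamer was found in 3 of the 7 member promoters, that of Cd36 and the first 2 of Pparg, while 14.0% of 32851 promoters of that length hold it. The full PPAR element (a direct repeat of that hexamer with 1 base between, searched with 1 free base in each copy) was found in 0 of the 7 and in 0.338% of all promoters. The CCAAT box was found in 5 of the 7 (33.8% of all), the GC box in 3 (32.7%) and the TATA box in 1, the second Pparg start (12.4%). In the printed sequences Cd36 shows 2 GC boxes and 1 CCAAT, the first Pparg start 1 GC box and no CCAAT, and Plin4 only 1 CCAAT, read on the other strand. These are letter matches, not sites shown to be bound.

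Libraries held 5868728 to 15014104 counts. The smallest, G0 of run 4, stood apart with counts on 39094 genes, where the others had 20836 to 26614. Basal genes were abundant in every library, which alone does not show how pure the sort was. The 10 basal genes, among them the keratins Krt5 and Krt14 and the actin Acta2, summed to 32010 to 35830 CPM (counts scaled to library size with TMM factors) in G1 and 23060 to 30280 CPM in G0. Acta2 alone had 517203 reads in G1 and 320216 in G0. A model of phase only, tested by edgeR's quasi-likelihood method over 15192 genes with a threshold of 0.05 on the adjusted p, called 0 genes higher (0%) and 0 lower (0%). At an unadjusted p under 0.05 there were 156 higher and 269 lower. Limma-voom likewise called 0, and DESeq2 10 higher and 24 lower. Adding the run to the edgeR model as a replicate block gave calls for 73 higher (0.481%) and 116 lower (0.764%). The libraries of a run deviated together, so fold changes below are G1 over G0 on the log2 scale from the blocked fit, with standard errors.

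Per length of transcript, Angptl4 was the most abundant member and Plin1 the least. In TPM, a relative abundance computed from counts over the union of exons, Angptl4 averaged 435 ± 92.6 in G1 and 391 ± 113 in G0 (SD, n = 4 each). In G1 it was followed by Fabp5 (129 ± 52.5 TPM), Fabp4 (43.3 ± 23.5), Cd36 (25.1 ± 10.1), Gpihbp1 (9.50 ± 5.95), Lpl (2.20 ± 1.28), Plin4 (1.66 ± 0.70), Pparg (1.19 ± 0.77), Adipoq (0.686 ± 0.851) and Plin1 (0.0628 ± 0.0432). Of these neighbours in G1, only Angptl4 and Fabp5 had library ranges that did not overlap. In G0 the order was Fabp4 (109 ± 35.4 TPM), Fabp5 (107 ± 27.1), Cd36 (80.1 ± 30.3), Gpihbp1 (35.6 ± 9.92), Lpl (4.57 ± 1.12), Pparg (2.85 ± 0.82), Plin4 (1.48 ± 0.54), Adipoq (1.25 ± 0.47) and Plin1 (0.264 ± 0.418). The gaps below Angptl4, below Cd36 and below Gpihbp1 were the ones in G0 with no overlap between libraries, so the 3 most abundant after Angptl4 could not be ranked.

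The partners of the capillary surface, Gpihbp1 and Cd36, were lower in every G1 library than in any G0 library. Gpihbp1 (chromosome 15, 75596628 to 75599481, plus strand, positions here and below from GENCODE M21 on GRCm38) had 2.27, 7.05, 23.9 and 11.35 CPM in the G1 libraries of runs 1 to 4, against 27.1, 40.5, 53.2 and 32.3 CPM in G0. Its means were 11.1 ± 9.28 CPM in G1 and 38.3 ± 11.4 CPM in G0 (SD, n = 4 each), with a fold change of -2.09 ± 0.39. The groups came closest between the G1 library of run 3 and the G0 library of run 1. Cd36 (chromosome 5, 17781690 to 17888801, minus strand) had 16.2, 45.8, 45.9 and 40.5 CPM in G1, against 117, 134, 106 and 102 CPM in G0. It averaged 37.1 ± 14.2 CPM in G1 and 114.8 ± 14.3 CPM in G0, a fold change of -1.72 ± 0.26. The G0 libraries lay close together, and among the G1 libraries that of run 1 was the lowest. Fewer cells of a type and less RNA per cell cannot be told apart in such bulk libraries.

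Lpl, the lipase itself, was lower in G1 in each run, but the runs differed so much that the groups overlapped. Lpl (chromosome 8, 68880491 to 68907448, plus strand) had 3.61, 5.83, 23.0 and 9.86 CPM in G1, against 12.7, 17.4, 34.3 and 19.8 CPM in G0. The means were 10.6 ± 8.67 CPM in G1 and 21.0 ± 9.30 CPM in G0, with a fold change of -1.20 ± 0.20. The G1 library of run 3 lay above 3 of the G0 libraries, and within run 3 it was still below its own G0 partner.

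The related chaperones Fabp4 and Fabp5, neighbours on chromosome 3, did not move alike. Fabp4, the form of adipocytes and capillary endothelium (10204088 to 10208576, minus strand), had 26.1, 52.9, 180.4 and 93.7 CPM in G1, against 158, 129.7, 395 and 194 CPM in G0. It averaged 88.3 ± 67.4 CPM in G1 and 219 ± 120.2 CPM in G0, a fold change of -1.497 ± 0.270. Run 3 was the highest in both phases, so its G1 library lay within the G0 range, while the other 3 G1 libraries lay below all of G0. Fabp5, the epidermal form, which epithelial cells also make (10012548 to 10016607, plus strand), had 151, 160.4, 126 and 304 CPM in G1, against 156, 131, 135 and 213 CPM in G0. It averaged 185 ± 80.2 CPM in G1 and 159 ± 37.8 CPM in G0, a fold change of 0.16 ± 0.12. The groups overlapped over most of their range, and the library that stood highest was G1 of run 4. Of the 50-base words in Fabp5 exons, 5.48% also occur in 5 other genes, Gm6166, Gm14328 and Fabp5l2 among them. How such reads were counted is not given in the sources used here, so its level is less certain than that of Fabp4, which shares none.

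Angptl4, the inhibitor of the lipase, differed between the phases by less than the spread of either. Angptl4 (chromosome 17, 33773750 to 33781830, minus strand) had 444, 615, 655 and 800.5 CPM in G1, against 449, 629.9, 508 and 702 CPM in G0. It averaged 629 ± 147 CPM in G1 and 572 ± 115 CPM in G0, a fold change of 0.13 ± 0.11. The groups overlapped, and the lowest library of each was that of run 1.

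The genes by which an adipocyte is usually recognised were at or near 0. Adipoq (chromosome 16, 23146536 to 23158028, plus strand) had 0, 6, 13 and 0 reads in G1, against 8, 3, 17 and 5 reads in G0. It summed to 19 reads in G1 of 43712439 and 33 reads in G0 of 42023113. Plin1 (chromosome 7, 79720218 to 79732903, minus strand) had 0, 2, 2 and 1 reads in G1, against 0, 1, 4 and 12 reads in G0. It thus summed to 5 reads in G1 and 17 in G0, of which 12 were in 1 library. A count of 0 allows a level of up to 0.212 to 0.536 CPM in these libraries, taken as 3 counts, which covers counting error only. Both genes were left out of the test for low counts, and a difference between the phases was not detectable at this depth.

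Plin4 and Pparg passed the count filter at low levels. Plin4 (chromosome 17, 56100591 to 56109803, minus strand) had 2.41, 5.21, 3.78 and 3.88 CPM in G1, against 2.36, 3.94, 2.69 and 5.36 CPM in G0. It averaged 3.82 ± 1.15 CPM in G1 and 3.59 ± 1.36 CPM in G0, a fold change of 0.13 ± 0.33 with overlapping groups. It shares bases with Hdgfl2 on the other strand, which averaged 68.0 CPM in G1 and 68.2 CPM in G0, and whether reads were counted by strand is not stated in the sources at hand. Pparg, the master regulator of fat cells (chromosome 6, 115360951 to 115490399, plus strand), had 0.992, 0.46, 3.68 and 1.34 CPM in G1, against 3.54, 1.79, 5.44 and 3.93 CPM in G0. Its means were 1.62 ± 1.42 CPM in G1 and 3.67 ± 1.501 CPM in G0, from 65 reads in G1 and 158 in G0 over all libraries, with a fold change of -1.39 ± 0.42. It was lower in G1 in each run, and the groups overlapped through the G1 library of run 3.

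**Figure D1:**
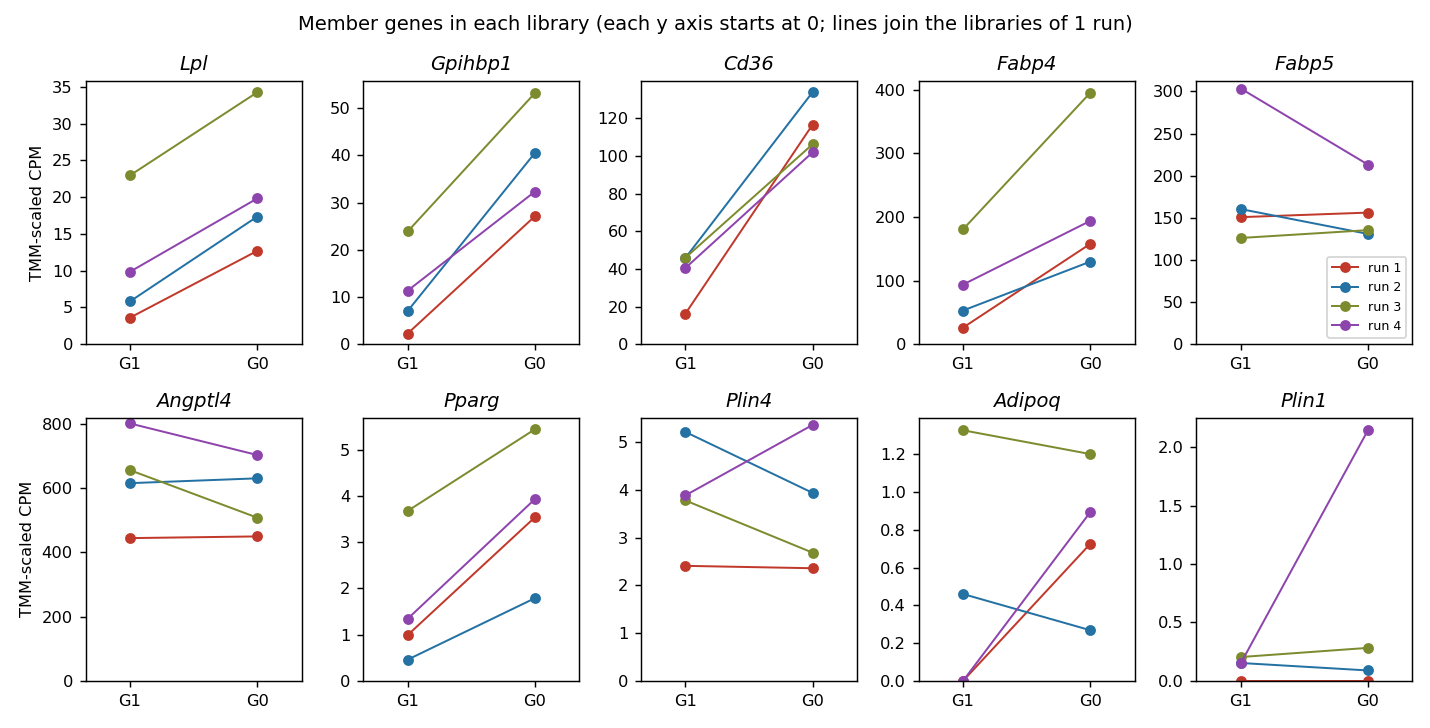
TMM-scaled CPM of each of the 10 genes (y axis, from 0) in G1 and G0 libraries (x axis), 1 point per library, with lines joining the libraries of 1 run. For Gpihbp1 and Cd36 all 4 G1 points lie below all 4 G0 points, for Lpl, Fabp4 and Pparg every line is lower at G1, and Fabp5, Angptl4 and Plin4 show lines in both directions.

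Of the 8 tested members, the 2 with no overlap between phases, Gpihbp1 and Cd36, compare with 1.17% of all tested genes that had every G1 library below every G0 library. Lpl, Gpihbp1, Cd36, Fabp4 and Pparg were lower in G1 in all 4 runs, 5 of 8, against 9.44% of all tested genes. With the block, edgeR called 2 members lower, Lpl and Cd36, and 0 higher, against the 0.764% and 0.481% of all tested genes given above. With the phase alone it called 0. Since this contrast chose the genes, nothing is read from these shares. Which members were called varied with the run left out. Without run 1 they were Lpl, Gpihbp1, Cd36 and Fabp4, without run 3 Lpl, Gpihbp1 and Cd36, and without run 2 or without run 4 Lpl alone.

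Whether the lower members followed capillary or adipocyte genes was looked at run by run. In log2 CPM of G1 minus G0 in runs 1 to 4, the mean of 22 endothelial genes stood at -1.91, -1.76, -1.07 and -1.17. Gpihbp1 stood at -3.48, -2.49, -1.15 and -1.49, and Cd36 at -2.83, -1.54, -1.21 and -1.33. Both were most negative in run 1 and least in run 3, as was the endothelial mean. Fabp4 stood at -2.59, -1.29, -1.13 and -1.05, Lpl at -1.76, -1.54, -0.57 and -0.99, and Pparg at -1.66, -1.61, -0.54 and -1.43. For all 5, run 1 held the most negative ratio. Without run 1 the mean ratio was -1.71 for Gpihbp1, -1.36 for Cd36, -1.16 for Fabp4, -1.04 for Lpl and -1.19 for Pparg. Without run 4, whose G0 library stood apart, it was -2.37, -1.86, -1.67, -1.29 and -1.27 in the same order.

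The list of genes that define adipocytes had a mean ratio closer to 0, but its members differed. The mean of the 8 of 12 such genes that were tested stood at -0.91, -0.18, -0.08 and -0.62 in runs 1 to 4, or -0.45 ± 0.39 over runs (SD, n = 4), against -1.48 ± 0.42 for the endothelial mean. Thrsp (-1.32), Car3 (-1.09) and Nnmt (-1.05) were each lower in all 4 runs, with mean ratios close to those of Pparg and Lpl. Cfd (-0.73) was lower in 3 runs. Lep (0.19) and Cidea (0.20) had positive mean ratios, as had Slc2a4 (0.34), and Aoc3 stood at -0.13. Muscle cells also make Slc2a4 and Aoc3. Without these 2, a choice made after the values were seen, the mean of the other 6 stood at -1.27, -0.21, -0.25 and -0.80, or -0.63 ± 0.50. The mean of 18 enzymes and droplet proteins of adipocyte lipid metabolism stood at -0.04 ± 0.05. In the mean over runs, each of the 5 lower members lay nearer the endothelial mean than the adipocyte-defining one, with or without those 2 genes. The members' means were -2.15 ± 1.05 for Gpihbp1, -1.73 ± 0.75 for Cd36, -1.51 ± 0.72 for Fabp4, -1.31 ± 0.52 for Pparg and -1.22 ± 0.54 for Lpl. In run 3 Pparg (-0.54) lay nearer the adipocyte-defining mean (-0.08) than the endothelial one (-1.07). Lpl (-0.57) lay about midway there, and nearer the adipocyte-defining mean without those 2 genes (-0.25). Of the list means computed, that of the 10 basal genes (0.18 ± 0.11) lay nearest Fabp5 (0.16 ± 0.29), Angptl4 (0.13 ± 0.19) and Plin4 (0.11 ± 0.42). Lists without such a mean had medians as near. The median fold change was 0.12 for other fatty acid binding and activating genes and 0.18 for fatty acid oxidation genes. All tested genes had a median of 0.01. The cell type behind these members was not tested.

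**Figure D2:**
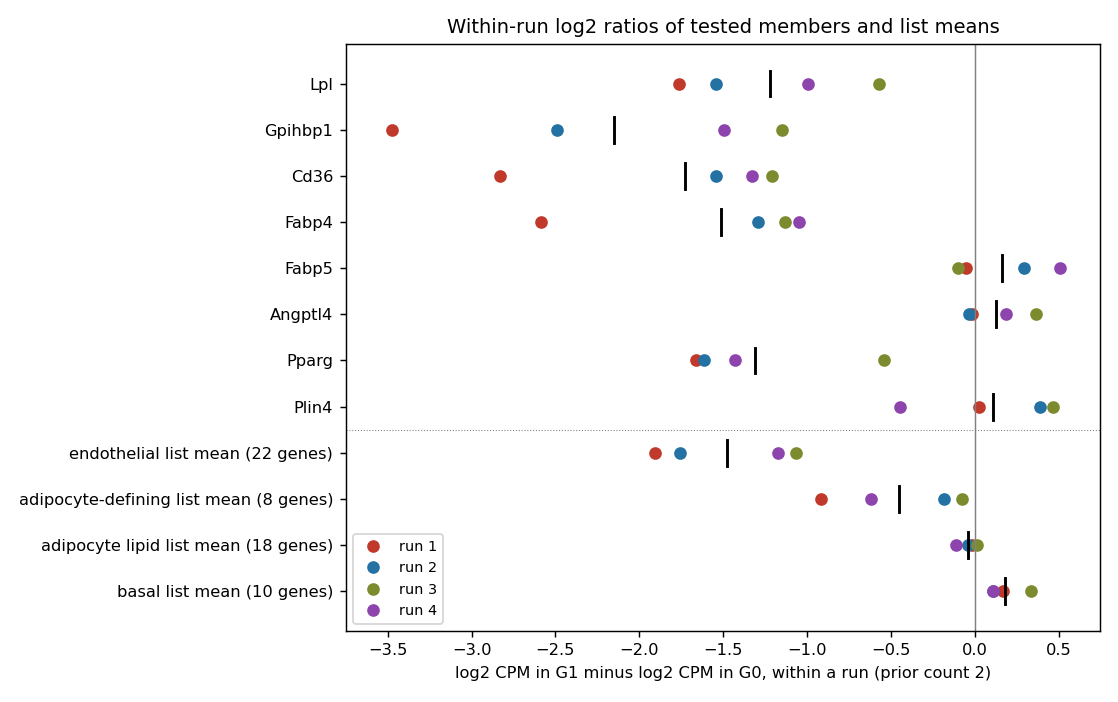
Within-run log2 ratios (x axis, log2 CPM of G1 minus G0, prior count 2) of the 8 tested members and of 4 list means (rows), 1 point per run, with the mean over runs as a black bar. The means of Lpl, Gpihbp1, Cd36, Fabp4 and Pparg lie nearer the endothelial mean (-1.48) than the adipocyte-defining one (-0.45). In run 3 the point of Pparg lies nearer the adipocyte-defining one. The means of Fabp5, Angptl4 and Plin4 lie between the adipocyte lipid mean (-0.04) and the basal mean (0.18), with runs on both sides of 0.

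Setting each member against the endothelial mean of its own library brought the differences of the 5 lower ones closer to 0. Subtracting so negative a mean does this to any ratio of similar size, so it is a description and not a test. The gap between Fabp4 and the endothelial mean was 3.63 ± 0.43 in G1 and 3.66 ± 0.58 in G0 on the log2 scale, a difference over runs of -0.04 ± 0.48. For Lpl the gap was 0.60 ± 0.46 in G1 and 0.34 ± 0.31 in G0, a difference of 0.26 ± 0.16 that was positive in all 4 runs. Of the 22 endothelial genes taken singly, 7 had a mean ratio less negative than that of Lpl, so Lpl lay within their range. For Gpihbp1 21 of the 22 were less negative, near the end of that range. The range also held the adipocyte genes Thrsp, Car3 and Nnmt, so lying within it does not separate capillary from adipocyte genes. Pparg differed by 0.16 ± 0.32 and Cd36 by -0.25 ± 0.48, both smaller than their spread between runs. Gpihbp1 differed by -0.68 ± 0.65 and was negative in all 4 runs, with -1.57 in run 1 and -0.08 in run 3. Fabp5 (1.64 ± 0.47), Angptl4 (1.602 ± 0.247) and Plin4 (1.58 ± 0.63) stood higher against the endothelial mean in G1.

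**Figure D3:**
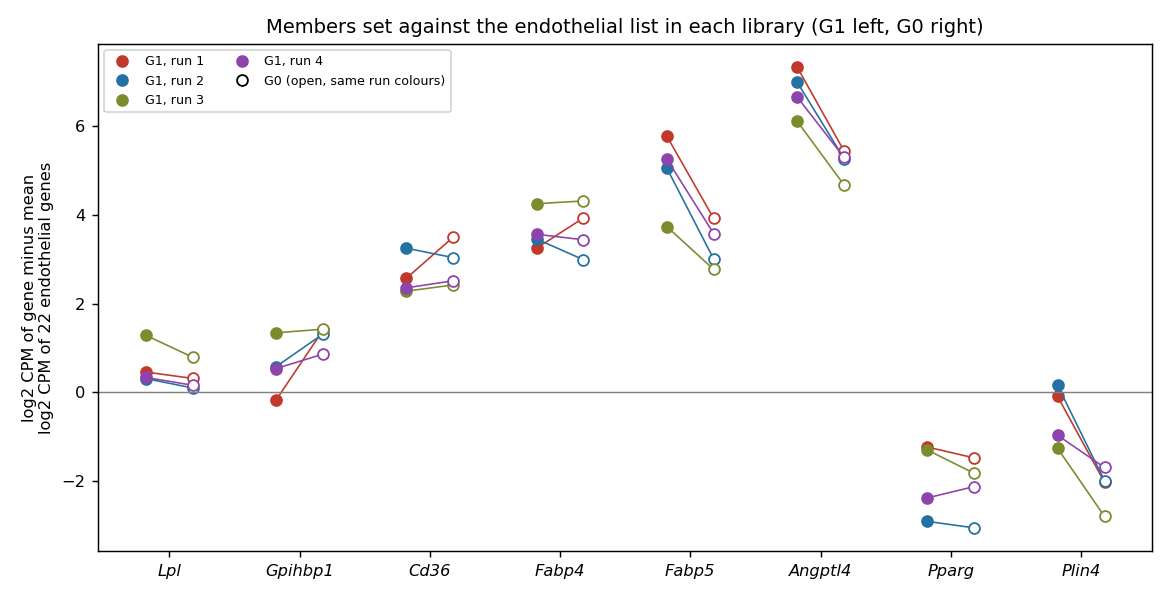
Log2 CPM of each tested member minus the mean log2 CPM of 22 endothelial genes in the same library (y axis), G1 as filled points and G0 as open points, with lines joining the libraries of 1 run (colour). Mean differences for Lpl, Cd36, Fabp4 and Pparg are 0.26, -0.25, -0.04 and 0.16. Their single lines run from -0.93 (Cd36, run 1) to 0.52 (Pparg, run 3), in both directions for Cd36, Fabp4 and Pparg. Lines for Gpihbp1 are lower at G1, by -1.57 in run 1 and only -0.08 in run 3. Those of Fabp5, Angptl4 and Plin4 are higher at G1.

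Most endothelial genes other than the members fell in G1. Of the 22 tested, 18 were called lower by edgeR with the block and 0 higher, all 22 had a negative fold change, and the median was -1.70, where all tested genes had a median of 0.01 and 48.9% were negative. Pecam1, an adhesion molecule of endothelial junctions, averaged 7.89 ± 4.11 CPM in G1 and 25.1 ± 9.17 CPM in G0, and Kdr, a VEGF receptor, 4.09 ± 2.41 CPM in G1 and 15.4 ± 6.83 CPM in G0 (SD, n = 4 each). The fold change was -1.74 ± 0.19 for Pecam1 (adjusted p = 4.33e-06, edgeR with the block) and -2.02 ± 0.27 for Kdr (adjusted p = 9.89e-05). Endothelial genes were already among the earlier results of this contrast, so these calls are not independent evidence. The summed level of the list was 90.3 to 287 CPM in G1 and 324 to 615 CPM in G0, with none of the 22 at 0 in any library. Its part in the values of Lpl, Gpihbp1, Cd36, Fabp4 and Pparg was not tested, and the run-by-run differences above are a description. Without run 2, 12 of the 22 were called, and without run 4, 13.

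Genes that handle lipid in capillary endothelium were divided. Of 13 tested of 15, 2 were called lower in G1 and 0 higher by edgeR with the block. In all, 8 of the 13 had a negative fold change, with a median of -0.11. Scarb1, the HDL receptor, fell by 0.69 (log2; adjusted p = 0.0162 in edgeR with the block) and Tcf15, a partner of Meox2 in fatty acid uptake by heart endothelium in mice, by 1.88 (adjusted p = 0.0246). Both calls ended without run 2 and that of Tcf15 without run 4. Aqp1, a water channel of capillaries, averaged 15.8 ± 10.6 CPM in G1 and 74.8 ± 12.8 CPM in G0 with no overlap, at -2.47 ± 0.65 and an adjusted p of 0.319. With the block, DESeq2 gave Aqp1 an adjusted p of 0.00377 and limma-voom 2.46e-05, and edgeR without run 1 gave 0.00303. Meox2 stood at -1.71 ± 0.58 and Aqp7, a glycerol channel, at -1.18 ± 0.45, neither called with all runs. Aqp7 was called without run 3. The caveolar genes Cav1 (0.22 ± 0.11), Cav2 (0.03 ± 0.11), Cavin1 (0.13 ± 0.13) and Cavin2 (0.20 ± 0.11), which basal and smooth muscle cells also express, were not called.

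Around the lipase, 0 of 9 tested of 15 partners were called, with a median of 0.08. The lipoprotein receptors Vldlr (0.55 ± 0.21) and Lrp1 (-0.26 ± 0.12) and the protease Furin (-0.23 ± 0.12) had the smallest p. The apolipoproteins that switch the lipase on or off, Apoc2 and Apoc3, had 0 and 0 reads in G1 and 0 and 1 in G0.

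None of the adipocyte genes passed the test. Of 8 adipocyte-defining genes tested of 12, 0 were called by edgeR with the block, 5 were negative and the median was -0.46. Car3, a carbonic anhydrase abundant in fat, averaged 4.26 ± 1.70 CPM in G1 and 8.94 ± 2.06 CPM in G0, at -1.11 ± 0.29 (adjusted p = 0.0593). It was called with RLE size factors (adjusted p = 0.0435) and without run 3 (adjusted p = 0.00127). Thrsp, a regulator of lipid synthesis, stood at -1.49 ± 0.58 and Nnmt, a methyltransferase of fat and liver, at -1.23 ± 0.51. Slc2a4, the insulin-responsive glucose transporter, which muscle cells also make, stood at 0.33 ± 0.14. The list summed to 109 to 163 CPM in G1 and 89.8 to 165 CPM in G0, mostly Slc2a4 and Aoc3, an amine oxidase that smooth muscle also makes. Without these 2 genes, a choice made after the values were seen, it summed to 7.30 to 18.02 CPM in G1 and 21.1 to 26.6 CPM in G0, lower in G1 in 4 of 4 runs. Every gene of the list had reads in both phases, and Cidec, a droplet protein, was at 0 in 2 G1 libraries and 1 G0 library, and Adrb3, an adrenergic receptor of fat, in 1 of each.

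Of 18 tested adipocyte lipid enzymes and droplet proteins of 20, 0 were called and the median was -0.02. Lipe, hormone-sensitive lipase, averaged 9.46 ± 1.90 CPM in G1 and 14.9 ± 5.002 CPM in G0, at -0.62 ± 0.20 (adjusted p = 0.161, edgeR with the block). The droplet protein Plin3 stood at 0.23 ± 0.13 and fatty acid synthase, Fasn, at -0.22 ± 0.17. Other fatty acid binding and activating genes also had 0 of 7 tested of 16 called, with a median of 0.12, and Fabp3, the heart form, had 199 reads in G1 and 197 in G0. Among partners of PPARgamma 0 of 18 tested of 20 were called (median -0.13). Ebf1, a factor of fat cell precursors and of B cells, stood at -1.43 ± 0.39 (adjusted p = 0.0723). Among fatty acid oxidation genes that PPARs regulate 0 of 16 tested of 18 were called (median 0.18), with Pdk4 at 0.30 ± 0.12 and Acadl at 0.28 ± 0.12.

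**Figure D4:**
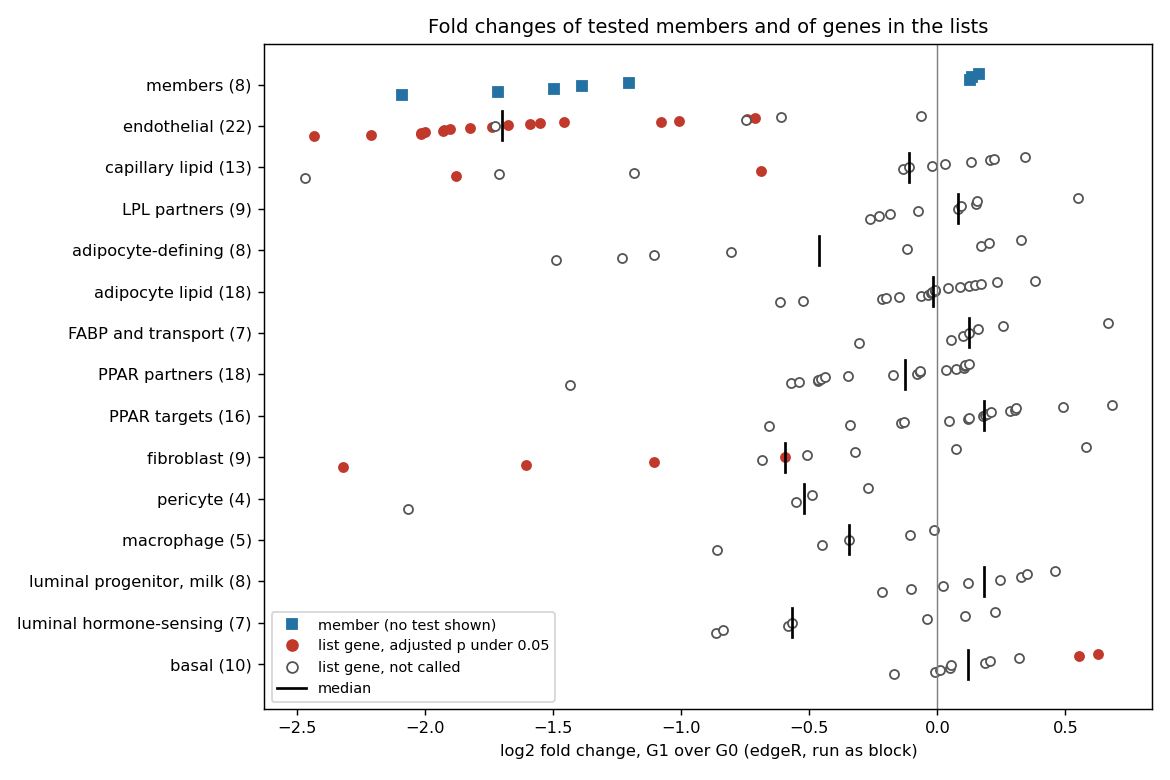
Log2 fold change, G1 over G0, from edgeR with the run as a block (x axis) for the 8 tested members (squares, no test shown) and for tested genes of each list (circles, filled where the adjusted p is under 0.05, with the number in parentheses), with the list median as a black bar. The endothelial list has a median of -1.70 with 18 of 22 filled, and the adipocyte lipid list a median of -0.02 with 0 filled.

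Other cell types moved with the members in part. Of 9 fibroblast genes tested of 10, 4 were called lower in G1, the surface marker Pi16 and the matrix genes Lum, Col1a1 and Col1a2. Of the 9, 7 had a negative fold change, and the median was -0.595. Dcn, a matrix proteoglycan and the most abundant of the list, stood the other way at 0.58 ± 0.16 (adjusted p = 0.0973, edgeR with the block), higher in G1 in 3 of 4 runs. With the block it was called with DESeq2, without run 1 and without run 3. The 10 genes summed to 262 to 620 CPM in G1 and 225 to 904 CPM in G0. The lymphatic receptor Flt4 was 1 of 2 tested of 6 and fell by 2.36 (adjusted p = 0.00618, edgeR with the block, but 0.109 without run 4). Pericyte (4 tested of 7, median -0.52), macrophage (5 of 10, -0.35), lymphocyte (2 of 7, -0.23), luminal progenitor and milk (8 of 12, 0.18) and luminal hormone-sensing genes (7 of 7, -0.57) had 0 called each, and 0 of 5 erythrocyte genes were tested. Of 10 basal genes 2 were called higher, Acta2 by 0.63 and Cnn1 by 0.55. The part of these cell types in the members' values was not tested.

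The genes most like each member were those with the smallest mean absolute difference over the 4 within-run log2 ratios, among 11722 tested genes whose log2 CPM averaged at least 1. These ratios come from the contrast that chose the members, so the likeness is a description, and the cell type was not tested. Roles are given for only some of the genes. For Gpihbp1 they were Cd300lg (0.23), Btnl9 (0.30) and Cldn5 (0.34). Cd300lg and Cldn5, a tight junction protein, are both in the endothelial list. For Cd36 they were Galnt15 (0.15), Angpt2 (0.19) and Fabp4 (0.22), and for Fabp4 they were Galnt15 (0.21), Cd36 (0.22) and Slco2b1 (0.24). Angpt2 is a ligand released by endothelium. For Lpl they were Pparg (0.16), Icam2 (0.18), an adhesion molecule of endothelium, and Adcy4 (0.24), and for Pparg they were Adcy4 (0.15), Lpl (0.16) and Thbd (0.25), the endothelial thrombin receptor. The members with ratios near 0 had other neighbours, Zfp639, Dynll1 and Nip7 for Fabp5, Dvl2, Bet1l and Eef2kmt for Angptl4, and Scrn3, Iqce and Tirap for Plin4.

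The level of several members also differed between runs, a comparison that the choice of genes did not use. The F test of the runs in the blocked edgeR fit called 5 of 8 tested members and 5411 of all 15192 genes (35.6%). Lpl averaged 8.16, 11.6, 28.6 and 14.9 CPM over the libraries of runs 1 to 4, a 3.51-fold range (adjusted p = 2.11e-05). Fabp4 averaged 91.8, 91.3, 288 and 144 CPM, a 3.15-fold range (adjusted p = 0.021), and Pparg 2.27, 1.13, 4.56 and 2.64 CPM, a 4.05-fold range (adjusted p = 0.0256). Run 3 was the highest for each of these 3 genes. Fabp5 averaged 153.5, 146, 131 and 258 CPM (adjusted p = 0.000174) and Angptl4 447, 622, 582 and 751 CPM (adjusted p = 0.00337), both highest in run 4. Gpihbp1 (14.7, 23.8, 38.6 and 21.9 CPM, adjusted p = 0.12), Plin4 (2.38, 4.58, 3.23 and 4.62 CPM, adjusted p = 0.262) and Cd36 (66.5, 89.9, 76.1 and 71.3 CPM, adjusted p = 0.426) were not called.

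The member called in every such fit that left out a run was Lpl. Without run 2 or without run 3, Lpl, Fabp5 and Angptl4 were called, so the calls of Fabp4 and Pparg ended. Without run 4 the call of Fabp5 ended, and without run 1 that of Angptl4 did, while Gpihbp1 was called there. The count over all genes was 2231 without run 3. Since nothing in the labels ties a run to its own mice, the p-values here and above reflect spread among libraries that may be technical.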

How the data were processed

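RNA from sorted mouse mammary basal cells was sequenced in 8 libraries, 4 of G1 and 4 of G0. Per the labels' protocols, polyadenylated RNA was selected and stranded libraries were read in pairs. Trimmomatic 0.35, STAR 2.5.2a and the build mm10 are named in the submitters' processing notes. Which program counted the reads, with which strand option and annotation, is not given in the sources used here. Raw counts per Ensembl gene were deposited, and 54722 of 54837 identifiers matched a GENCODE M21 symbol.

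The members, gene lists and tests were chosen with earlier results of these data known. Named genes are the members, the called genes of each list or up to 4 with the smallest p (1 is not reported here), and the 3 genes most like each member. The further Cav, Cavin, Slc2a4, Aoc3, Lep, Cidea, Cfd, Cidec, Adrb3, Apoc, Fabp3 and Dcn values were picked after they were seen. So were those of Lyve1, Prox1, Mmrn1, Pdpn and Ccl21a. Counts were tested with edgeR 4.0.16 in R 4.3.3 (TMM factors, filterByExpr, robust quasi-likelihood, two-sided, Benjamini-Hochberg at 0.05 over 15192 genes). The model held the phase alone, and the run as a replicate block was the alternative. Deviations from group means correlated at 0.437 to 0.668 between libraries of 1 run and at most at 0.0971 between runs, so the run number in the titles was taken to pair the libraries. Within-run ratios used a prior count of 2, and TPM used the union of exons. Standard errors are the fold change over the root of F. No pair of libraries in a group was a copy (12 pairs, chi-square per degree of freedom 21.73 to 95.08). Other settings were RLE factors, other count filters, DESeq2 1.42.0, limma-voom (limma 3.58.1) and libraries or runs left out. The scripts were tested on simulated data.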

Additional observations from a re-analysis of the deposited data

Results flagged for a closer look

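Plin1, the droplet coat protein of adipocytes, stood at 2.144 CPM in the G0 library of run 4, far from the other 3 G0 libraries at 0, 0.0895 and 0.283 CPM. The value rests on 12 reads in the library with the lowest total, where 39094 genes had at least 1 count; elsewhere 20836 to 26614 did. It was 1 of 20 groups of 4 libraries checked, and chance sets apart about 1 in 20.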

How the results depend on the processing

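With the phase alone, where edgeR called 0 genes, the count higher in G1 was 14 without the low-count filter, 10 with DESeq2 and 73 with a replicate block by run, and the count lower was 73, 24 and 116. Members called lower were 1 without the filter and 1 with DESeq2, Cd36 both times, and 2 with the replicate block, Lpl and Cd36. List genes called were 15, 11 and 27. RLE factors, limma-voom, at least 10 counts in all libraries and each library left out gave 0 for each of these counts. In this fit, leaving out a library moved the fold change of Fabp5 between -0.13 and 0.39, of Angptl4 between -0.0062 and 0.275 and of Plin4 between -0.0808 and 0.351. With the block, leaving out a run kept each positive, at 0.037 to 0.243, 0.039 to 0.184 and 0.008 to 0.307. The within-run ratios of each still had both signs, so their sign was not settled.

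With the block, leaving out 1 run gave 21 to 99 genes higher and 76 to 175 lower, and 1 to 4 members lower. DESeq2 and limma-voom each gave 4 members, Lpl, Gpihbp1, Cd36 and Fabp4. The call of Cd36 ended without run 2 and without run 4, at fold changes of -1.78 and -1.85. Between runs, leaving out 1 run gave 2231 to 5379 genes and 3 to 5 members. The within-run ratios moved by less than their spread (SD over runs) in 136 of 136 alternatives, an outcome partly fixed in advance. Leaving out 1 of 4 runs cannot move a mean by as much as that SD. Changes of scaling largely cancel in ratios set against the endothelial mean. The median over all genes was 0.01 with TMM, 0.01 with RLE and -0.01 with library totals. Adipoq and Plin1 were limited by depth, at 0 to 17 reads a library. No cause of these changes was tested.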

Other observations

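Run 3, highest for Lpl, Fabp4 and Pparg, held uneven reads of some lymphatic genes. Lyve1, a hyaluronan receptor of lymphatic endothelium, had 2 reads in the G1 library of run 3 and 1035 in the G0 library of run 3, against 0 to 26 in the other 6 libraries. Prox1, the factor that sets lymphatic identity, had 2 reads in that G1 library and 201 in that G0 library, against 0 to 32 in the other 6. Both genes were left out of the test for low counts in most libraries. Mmrn1 also stood apart, with 0 reads in that G1 library and 79 in that G0 library. Flt4 shared this in part, with 7 reads in that G1 library and 59 in that G0 library, its highest read count. In CPM, though, Flt4 was highest in the G0 library of run 4, at 8.22 CPM against 4.17 CPM in that of run 3. Pdpn did not share the unevenness, with 134 CPM in G1 and 160 CPM in G0 of run 3, and Ccl21a had 0 reads. In run 3 the within-run ratio of Lpl was -0.57 and that of Pparg -0.54, the least negative of the 4 runs for each, and without run 3 the members called with the block were Lpl, Gpihbp1 and Cd36.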
